A study of Mus musculus with 28 samples.

Results

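The vacuolar H+-ATPase (V-ATPase) genes described here are Atp6v0c and 9 other subunit genes of the same proton pump, 10 of the 23951 gene symbols in the expression tables. Atp6v0c was selected on its RNA values, which were higher in every H3.3 knockdown clone than in either control clone, and the 9 others were then taken as further subunits, by name and not by their values. The cells were NIH/3T3 Tet-On 3G, mouse fibroblasts of an immortal line with a doxycycline-responsive transactivator, and the samples address how loss of the histone variant H3.3 affects gene expression and binding of the NuRD complex, a nucleosome remodelling and histone deacetylase assembly. Polyadenylated RNA was sequenced from 3 H3.3KD clones, which carried the OFP-H3.3A and GFP-H3.3B constructs, and from 2 LUC clones, which are wild type for H3.3 and carried the GFP-Luciferase and OFP-Luciferase constructs, with 1 library per clone. Binding of MTA1 and of RBBP4 was mapped in H3.3KD and in LUC cells, with 1 library per protein and condition. The histone marks H3K4me3, H3K9ac and H3K27ac and the NuRD subunits RBBP4, MTA1, MBD2/3, HDAC2, HDAC1 and CHD4 were mapped in untransduced wild-type cells, with 1 library each. Tagged H3.3 was mapped through its HA tag in 2 replicates of cells that carried the HA/FLAG-H3.3 construct and were given aphidicolin and doxycycline, and in similar cells given doxycycline alone a FLAG precipitation was followed by one for RBBP4.

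The V-ATPase pumps protons into lysosomes, endosomes and other compartments and so makes them acidic. Its membrane sector, V0, holds a rotating ring built mostly of the c subunit, and its cytosolic sector, V1, hydrolyses ATP to turn that ring. The 2 sectors can come apart and reassemble, and together with the Ragulator complex the pump takes part in nutrient sensing by mTORC1 at the lysosome. Of the 10 genes, 4 encode V0 subunits: Atp6v0c the ring subunit c, Atp6v0b the related ring subunit c'', Atp6v0a1 an isoform of the membrane-spanning subunit a, and Atp6v0d1 the subunit d that caps the ring. The other 6 encode V1 subunits: Atp6v1a the catalytic subunit A, Atp6v1b2 the widely expressed isoform of subunit B, Atp6v1c1, Atp6v1d and Atp6v1e1 the subunits C, D and E of the stalks, and Atp6v1h the regulatory subunit H.

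Of the 10 genes, 7 had an entry in the RefSeq promoter table (build GRCm38.p6), with 9 promoters of 300 bases that run from 250 before to 50 after a start site. Atp6v1b2, Atp6v1c1 and Atp6v1h had none. The sequence CACGTG, the core of the E-box bound by the lysosomal regulators TFEB and TFE3 among many other factors, reads the same on both strands and was present in the promoters of 3 of the 7 genes, Atp6v0b, Atp6v0d1 and Atp6v1a, and in 8.09% of the 27025 genes in the table. The longer TCACGTG, searched on both strands and overlapping the first, was found in the same 3 genes and in 4.29% of all genes. The 3 promoters are printed with CACGTG in capitals, beside the most upstream Atp6v0c promoter, which does not contain these letters. They lie at chr4:117887280-117887579 (Atp6v0b), chr8:105566015-105566314 (Atp6v0d1), chr16:44139210-44139509 (Atp6v1a) and chr17:24169629-24169928 (Atp6v0c), all on the minus strand, and are written 5' to 3'.
Atp6v0b: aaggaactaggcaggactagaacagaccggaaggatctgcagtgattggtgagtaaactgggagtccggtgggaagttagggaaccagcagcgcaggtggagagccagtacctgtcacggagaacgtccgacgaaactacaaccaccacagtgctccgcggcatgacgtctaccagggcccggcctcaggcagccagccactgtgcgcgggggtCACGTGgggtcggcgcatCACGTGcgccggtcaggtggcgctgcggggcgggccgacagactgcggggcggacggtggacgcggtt
Atp6v0d1: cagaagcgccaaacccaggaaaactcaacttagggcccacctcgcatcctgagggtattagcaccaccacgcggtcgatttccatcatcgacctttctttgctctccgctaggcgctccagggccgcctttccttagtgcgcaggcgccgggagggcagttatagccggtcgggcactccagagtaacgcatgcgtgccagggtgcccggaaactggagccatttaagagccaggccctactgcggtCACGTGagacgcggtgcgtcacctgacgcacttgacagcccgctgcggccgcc
Atp6v1a: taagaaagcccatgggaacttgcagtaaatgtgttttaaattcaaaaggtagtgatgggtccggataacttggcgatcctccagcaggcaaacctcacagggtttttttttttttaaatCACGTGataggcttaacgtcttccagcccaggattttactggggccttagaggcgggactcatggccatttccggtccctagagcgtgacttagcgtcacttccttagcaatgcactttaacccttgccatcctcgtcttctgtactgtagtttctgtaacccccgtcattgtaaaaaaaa
Atp6v0c: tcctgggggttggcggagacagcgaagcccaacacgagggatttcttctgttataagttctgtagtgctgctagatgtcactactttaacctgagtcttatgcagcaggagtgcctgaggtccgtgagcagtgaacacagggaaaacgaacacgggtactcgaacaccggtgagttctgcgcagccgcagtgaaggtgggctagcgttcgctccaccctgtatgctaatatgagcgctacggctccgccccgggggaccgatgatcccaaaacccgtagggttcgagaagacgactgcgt

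The first base of CACGTG lay 36 and 18 bases before the start site in Atp6v0b, 3 bases before it in Atp6v0d1 and 131 bases before it in Atp6v1a. GGGCGG, the core of a GC box, was present on either strand in 5 of the 7 genes (Atp6v0a1, Atp6v0b, Atp6v0c, Atp6v1d and Atp6v1e1), against 38.2% of all genes. CCAAT was present on either strand in Atp6v0b and Atp6v1e1, 2 of the 7 genes, against 41.1% of all genes. TATAAA was present on either strand in Atp6v1e1 alone of the 7, against 15.7% of all genes. The median GC content was 59.7% over the 9 promoters of these genes and 52.7% over all 32851 promoters. The letters CG occurred 7 to 30 times in each of the 9, against a median of 7 over all promoters. CACGTG and GGGCGG contain CG, and the shares of all genes were not matched for it. These matches describe letters in a window, and no library here mapped a factor that binds them.

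The knockdown was read first from the genes that encode H3.3. H3f3a had 71.8, 35.6 and 5.05 FPKM (fragments scaled to transcript length and to library size, the deposited unit) in H3.3KD clones 1 to 3, against 128.3 and 143.5 FPKM in LUC clones 1 and 2. H3f3b had 144.4, 104.3 and 51.7 FPKM in H3.3KD clones, against 249.4 and 237.1 FPKM in LUC clones. Both were lower in every H3.3KD clone, and H3f3a ranged from 52.8% down to 3.71% of the LUC mean. Depth, estimated from the deposited confidence bounds, was 18.2 to 26.5 M fragments in H3.3KD clones and 25.2 to 25.9 M in LUC clones. On the first principal component, which held 39.1% of the variance, H3.3KD clone 1 lay at 72.6 and the other 4 libraries between -40.1 and 0.59. All 8 fibroblast markers were expressed, with summed levels of 5521 to 8096 FPKM in H3.3KD clones and 5406 to 6078 FPKM in LUC clones. Of 8 osteoclast and macrophage markers, cells rich in V-ATPase, 1 (Cd68) averaged at least 1 FPKM, and their sum was 3.79 to 4.91 FPKM in H3.3KD clones and 4.37 to 4.38 FPKM in LUC clones, with Calcr at 0 in all 5 libraries. Of the other marker lists, none of 4 epithelial and none of 3 neural genes reached a mean of 1 FPKM, and of 3 endothelial genes Cdh5 did, at 0.170 to 0.495 FPKM in H3.3KD clones and 3.78 to 6.89 FPKM in LUC clones. The part of these differences, or of clone 1, in the values of the pump genes was not tested. In such bulk RNA, fewer cells of a kind and less RNA per cell cannot be told apart.

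Atp6v0c had 256.4, 188.0 and 269.7 FPKM in H3.3KD clones 1 to 3, against 58.7 and 47.9 FPKM in LUC clones 1 and 2. Every H3.3KD clone lay above both LUC clones, which is the pattern the gene was chosen for, so it is given without a test. The mean was 238.0 ± 43.9 FPKM in H3.3KD clones (SD, n = 3) and 53.3 ± 7.69 FPKM in LUC clones (SD, n = 2), a 4.47-fold ratio and a difference of 2.13 (SE 0.24) on the log2(FPKM + 1) scale. Without H3.3KD clone 1, which stood apart over all genes, the difference was 2.07. Over all 11728 genes tested, 11.4% had all H3.3KD clones above both LUC clones.

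The same stretch of chromosome 17 carries another entry in the deposited tables, under the pseudogene symbol Atp6v0c-ps2, and it moved the opposite way. In mm9, Atp6v0c is listed at chr17:24300833-24306374 and Atp6v0c-ps2 at chr17:24300832-24306340, and the 5508 bases they share make up 99.4% of the Atp6v0c locus and 99.98% of the Atp6v0c-ps2 locus. Atp6v0c-ps2 had 0.0266, 67.8 and 4.99 FPKM in H3.3KD clones 1 to 3, against 221.5 and 229.6 FPKM in LUC clones 1 and 2. Its H3.3KD clones lay below both LUC clones with no overlap, and clone 2, where Atp6v0c was lowest among the H3.3KD clones, was the one where Atp6v0c-ps2 was highest. In RefSeq (GRCm38.p6) Atp6v0c is a protein-coding gene on chromosome 17 and Atp6v0c-ps2 is a transcribed pseudogene on chromosome 6.

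Summed over both entries, the locus had 256.4, 255.7 and 274.7 FPKM in H3.3KD clones, against 280.2 and 277.5 FPKM in LUC clones. The H3.3KD sums all lay slightly below the LUC sums, and the 5 libraries spanned 9.11% of their mean. The mean sum was 262.3 ± 10.8 FPKM in H3.3KD clones (SD, n = 3) and 278.9 ± 1.94 FPKM in LUC clones (SD, n = 2), a ratio of 0.941 and a difference of -0.09 (SE 0.17) on the log2(FPKM + 1) scale. The Atp6v0c entry held 99.99%, 73.5% and 98.2% of the summed FPKM in H3.3KD clones 1 to 3, against 21.0% and 17.2% in LUC clones 1 and 2. The groups thus differed in how the listed FPKM was divided between the entries. The direction of the Atp6v0c difference turned with the sum, an alternative chosen after seeing the data. How the authors' processing assigned reads between the entries is not given in the sources used here, and its part in the Atp6v0c difference was not tested.

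**Figure D1:**
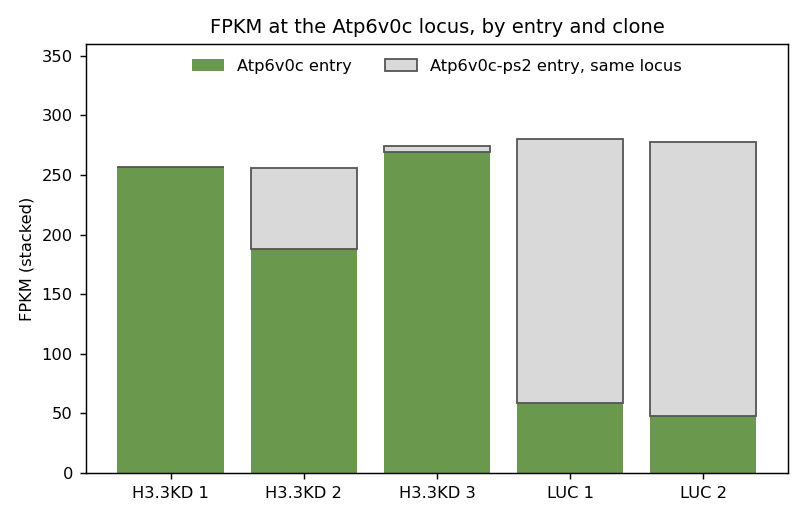
Stacked FPKM (y axis) of the Atp6v0c entry (green) and of the Atp6v0c-ps2 entry on the same locus (grey) in each of the 3 H3.3KD and 2 LUC clones (x axis). The green part is 188.0 FPKM or more in H3.3KD clones and 58.7 FPKM or less in LUC clones, while the full bars stay between 255.7 and 280.2 FPKM.

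Among 402 pairs of symbols that share at least 95% of both loci, both symbols passed the expression filter in 46. In 2 of those 46 pairs was one entry higher and the other lower in every H3.3KD clone, Atp6v0c with Atp6v0c-ps2 and Oaz1 with Oaz1-ps. Over all genes tested, 11.4% had all H3.3KD clones above both LUC clones and 21.2% had all below. The count of pairs was not tested against these shares and does not set the 2 pairs apart from them.

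Apart from Atp6v0c-ps2, 10 symbols are listed within 100 kb of Atp6v0c, and none had all H3.3KD clones above both LUC clones. Over all genes tested 11.4% had that order and 21.2% the opposite, so none of 10 says little. Ntn3, Mir6965 and Abca17 were too low to be tested. Amdhd2, an amidohydrolase gene whose locus lies 132 bases away, had 13.0, 12.3 and 8.45 FPKM in H3.3KD clones, against 8.70 and 13.5 FPKM in LUC clones, and the groups overlapped. Ccnf, the gene of cyclin F, had 8.89, 28.8 and 22.0 FPKM in H3.3KD clones, against 43.9 and 29.8 FPKM in LUC clones. Its H3.3KD clones all lay below, with a difference of -0.98 on the log2(FPKM + 1) scale that did not pass the test (limma, adjusted p = 0.547). Abca17 lay below in every H3.3KD clone too, at no more than 0.0892 FPKM in H3.3KD clones and 0.161 FPKM in LUC clones. The groups overlapped for Kctd5, Pdpk1, Tbc1d24, Ntn3, 1600002H07Rik and the microRNA gene Mir5134, and Mir6965 was listed at 0 in every library.

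The genes most like Atp6v0c over the 5 clones, by the Euclidean distance between centred log2(FPKM + 1) profiles, were Cacna1a (0.564), Cd164 (0.730), Glt8d2 (0.748), Gsta4 (0.765) and Ccdc34 (0.773). Cacna1a had 12.0, 10.2 and 14.4 FPKM in H3.3KD clones, against 3.50 and 2.91 FPKM in LUC clones. Cd164 had 104.7, 92.3 and 71.5 FPKM in H3.3KD clones, against 20.9 and 23.0 FPKM in LUC clones. The sum of both entries of the Atp6v0c locus lay at a distance of 2.46 from the Atp6v0c entry, and 4788 genes were nearer to it.

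None of the 9 other pump genes passed the test in the comparison of H3.3KD with LUC clones, where 4 of 11728 genes, or 0.0341%, did (limma on log2(FPKM + 1), Benjamini-Hochberg adjusted p under 0.05). Before adjustment, 2 of the 9 had p under 0.05, against 1150 of all 11728 genes. On the log2(FPKM + 1) scale 1 of the 9 had a difference above 0 and 8 below 0, with a median of -0.28, against 4707 above and 7021 below 0 and a median of -0.10 over all genes. All H3.3KD clones lay below both LUC clones for 2 of the 10 genes, Atp6v1b2 and Atp6v1e1, and 21.2% of all genes tested had that order. Each library is 1 clone, so p-values measure the spread between these clones. Between 955 and 7925 estimated fragments per library stood behind the values of the 9 genes, and their precision was limited by the clones.

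Atp6v0b, the ring subunit c'', had 190.6, 136.6 and 145.1 FPKM in H3.3KD clones, against 132.0 and 156.9 FPKM in LUC clones. The H3.3KD clones lay on both sides of the LUC values, with a difference of 0.11 (SE 0.23, 95% interval -0.47 to 0.70) on the log2(FPKM + 1) scale that did not pass the test (limma, adjusted p = 0.854). Atp6v0a1, an isoform of the membrane subunit a, had 20.9, 22.0 and 17.4 FPKM in H3.3KD clones, against 18.2 and 24.4 FPKM in LUC clones. The groups overlapped, with a difference of -0.07 (SE 0.22, 95% interval -0.61 to 0.47). Atp6v0d1, the subunit between ring and stalk, had 63.6, 38.0 and 45.9 FPKM in H3.3KD clones, against 47.7 and 74.8 FPKM in LUC clones. These groups overlapped as well, with a difference of -0.31 (SE 0.32, 95% interval -1.11 to 0.49), and neither gene passed the test (limma, adjusted p = 0.899 for Atp6v0a1 and 0.705 for Atp6v0d1).

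Atp6v1b2, the B subunit that pairs with A in the catalytic head, had the largest difference of the 9. It had 27.8, 27.7 and 21.3 FPKM in H3.3KD clones, against 63.0 and 84.8 FPKM in LUC clones. The groups were wide apart, with means of 25.6 ± 3.71 FPKM in H3.3KD clones (SD, n = 3) and 73.9 ± 15.4 FPKM in LUC clones (SD, n = 2), a ratio of 0.346. The difference was -1.49 (SE 0.23, 95% interval -2.08 to -0.90) on the log2(FPKM + 1) scale and did not pass the test over all genes (limma, adjusted p = 0.336). It was larger in size than those of 97.5% of all genes tested and ranked 156 among the negative ones. Leaving out each clone in turn gave -1.70 to -1.28, with -1.55 without H3.3KD clone 1. Atp6v1b2 also shares 487 bases of its locus with Slc18a1, which had at most 0.109 FPKM in any library.

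Atp6v1a, the catalytic subunit that forms the head with B, had 29.5, 32.6 and 33.4 FPKM in H3.3KD clones, against 25.5 and 43.6 FPKM in LUC clones. All 3 H3.3KD clones lay between the LUC clones, with a difference of -0.07 (SE 0.27, 95% interval -0.75 to 0.61) that did not pass the test (limma, adjusted p = 0.928). Atp6v1b2 thus had a lower mean level per length than Atp6v1a in H3.3KD clones (25.6 and 31.9 FPKM) and a higher one in LUC clones (73.9 and 34.5 FPKM). The difference between their changes was not tested.

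Atp6v1e1, subunit E of the peripheral stalks, had 86.3, 80.9 and 81.3 FPKM in H3.3KD clones, against 114.5 and 123.8 FPKM in LUC clones. The H3.3KD clones lay close together and below both LUC clones, with means of 82.8 ± 3.02 FPKM in H3.3KD clones (SD, n = 3) and 119.1 ± 6.60 FPKM in LUC clones (SD, n = 2). The difference of -0.52 (SE 0.17, 95% interval -0.96 to -0.08) on the log2(FPKM + 1) scale did not pass the test over all genes (limma, adjusted p = 0.485). Leaving out each clone in turn gave -0.57 to -0.46, with -0.55 without H3.3KD clone 1.

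The other V1 genes had overlapping groups. Atp6v1c1, subunit C, which is released when the sectors part, had 30.7, 37.4 and 33.1 FPKM in H3.3KD clones, against 36.9 and 45.8 FPKM in LUC clones, a difference of -0.28 (SE 0.20, 95% interval -0.79 to 0.22). Atp6v1d, subunit D of the central stalk, had 29.0, 32.4 and 28.8 FPKM in H3.3KD clones, against 25.0 and 36.5 FPKM in LUC clones, a difference of -0.01 (SE 0.22, 95% interval -0.57 to 0.56). Its 3 H3.3KD clones lay between the LUC clones. Atp6v1h, the regulatory subunit H, had 27.7, 34.5 and 45.7 FPKM in H3.3KD clones, against 51.3 and 39.8 FPKM in LUC clones, a difference of -0.35 (SE 0.27, 95% interval -1.04 to 0.34). H3.3KD clone 3 was above LUC clone 2 and the other H3.3KD clones were below both. None of these genes passed the test (limma, adjusted p = 0.607 for Atp6v1c1, 0.990 for Atp6v1d and 0.639 for Atp6v1h).

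**Figure D2:**
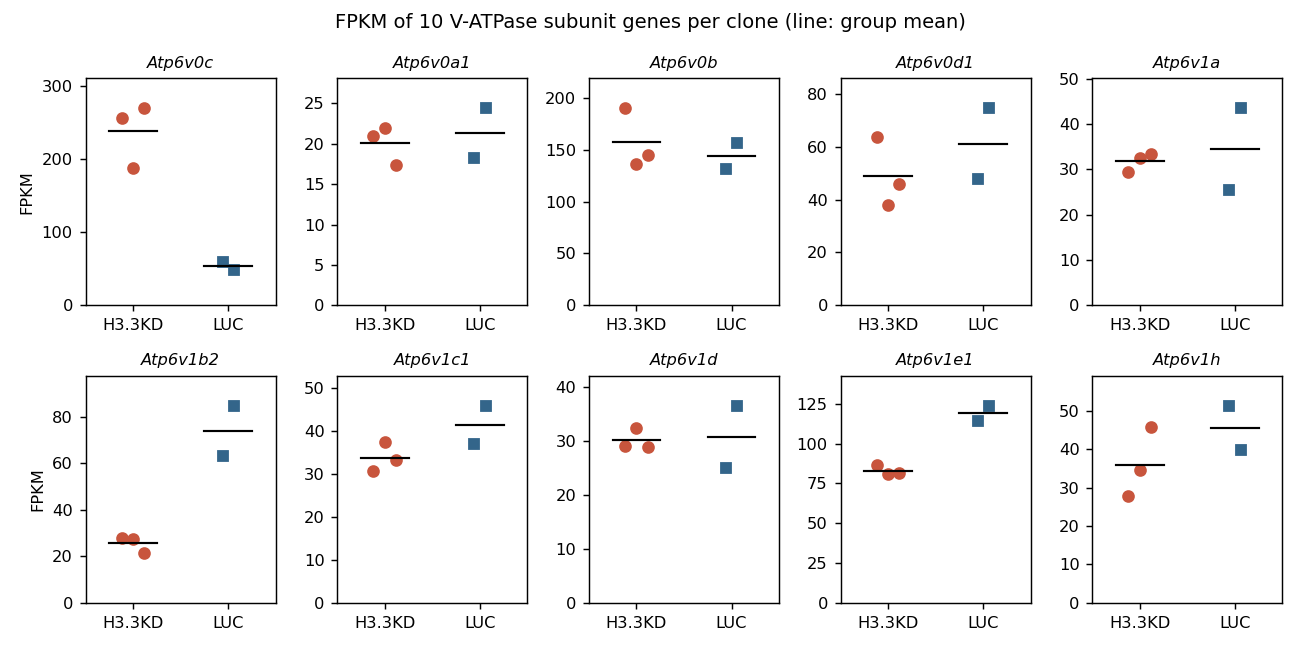
FPKM (y axis, 1 scale per gene, from 0) of the 10 V-ATPase genes in 3 H3.3KD clones (red circles) and 2 LUC clones (blue squares), with a line at each group mean. Atp6v0c is apart upwards in H3.3KD clones, Atp6v1b2 (21.3 to 27.8 FPKM in H3.3KD clones, 63.0 and 84.8 FPKM in LUC clones) and Atp6v1e1 are apart downwards, and the other 7 genes overlap.

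**Figure D3:**
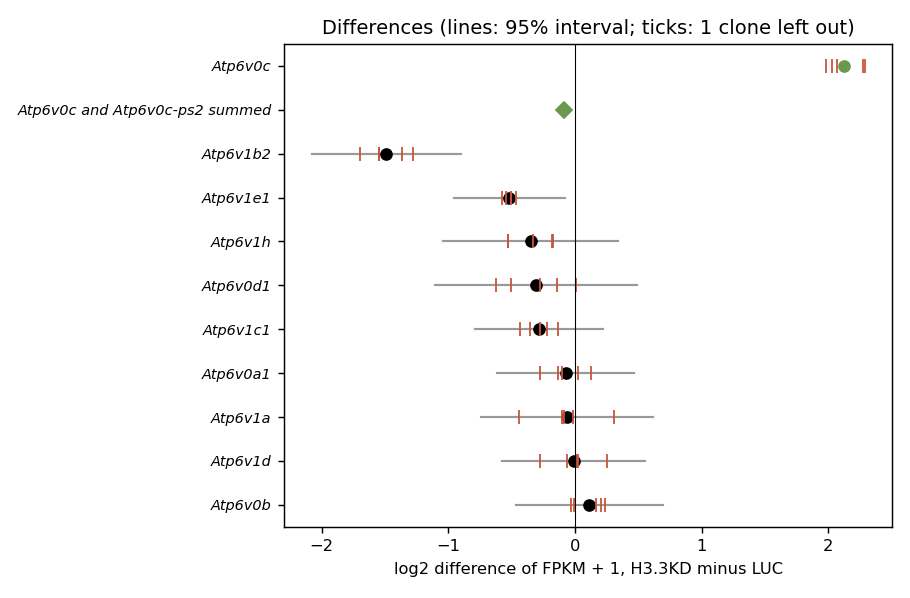
Differences of H3.3KD minus LUC clones in log2(FPKM + 1) (x axis) for the Atp6v0c entry, for the sum of the entries on its locus (diamond) and for the 9 other genes, with 95% intervals (grey lines, the 9 other genes) and the values with 1 clone left out (red ticks). Atp6v0c lies at 2.13 and the sum at -0.09, and of the 9 others Atp6v1b2 (-1.49) and Atp6v1e1 (-0.52) have intervals below 0.

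The levels per length can be ordered within a group. In H3.3KD clones the mean FPKM ran from Atp6v0c (238.0) over Atp6v0b (157.5), Atp6v1e1 (82.8), Atp6v0d1 (49.2), Atp6v1h (36.0), Atp6v1c1 (33.7), Atp6v1a (31.9), Atp6v1d (30.1) and Atp6v1b2 (25.6) to Atp6v0a1 (20.1). Neighbours whose clones did not overlap were Atp6v0b and Atp6v1e1, Atp6v1e1 and Atp6v0d1, and Atp6v1d and Atp6v1b2. In LUC clones it ran from Atp6v0b (144.4) over Atp6v1e1 (119.1), Atp6v1b2 (73.9), Atp6v0d1 (61.3), Atp6v0c (53.3), Atp6v1h (45.5), Atp6v1c1 (41.4), Atp6v1a (34.5) and Atp6v1d (30.7) to Atp6v0a1 (21.3). There the neighbours that did not overlap were Atp6v0b and Atp6v1e1, Atp6v1e1 and Atp6v1b2, and Atp6v1d and Atp6v0a1. Read as the sum of its entries, the Atp6v0c locus, at 262.3 FPKM in H3.3KD clones and 278.9 FPKM in LUC clones, was the highest of the 10 in both groups.

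Of the 9 genes other than Atp6v0c, 7 have another listed gene within 2 kb or on their own locus, and Atp6v1c1 and Atp6v1h have none. Strand was not stated, so reads that overlap such a neighbour cannot be told apart. Naa50 lies 789 bases from Atp6v1a, Eif2s1 433 bases from Atp6v1d, and Dph2 1313 bases and B4galt2 853 bases from Atp6v0b. Dph2 had 7.16, 10.4 and 13.1 FPKM in H3.3KD clones, against 25.9 and 13.3 FPKM in LUC clones, lower in every H3.3KD clone, and did not pass the test (limma, adjusted p = 0.517). Naa50, Eif2s1 and B4galt2 had overlapping groups. Hsd11b2 and Agrp, 481 and 654 bases from Atp6v0d1, and Slc25a18, 1261 bases from Atp6v1e1, had at most 0.624 FPKM in any library. The microRNA gene Mir6928, inside Atp6v0a1, was listed at 0 in every library but LUC clone 1, where it had 94.5 FPKM.

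The 16 other pump genes listed gave no call either. Of these, 10 passed the expression filter of a mean FPKM of at least 1, and 6 (Atp6v0a4, Atp6v0d2, Atp6v1b1, Atp6v1c2, Atp6v1e2 and Atp6v1g3, isoforms used in particular tissues) did not, with at most 0.999 FPKM in any library. None of the 10 passed the test (limma, smallest adjusted p = 0.489), and 1 had an unadjusted p under 0.05, against 1150 of all 11728 genes. On the log2(FPKM + 1) scale 4 differences were above and 6 below 0, with a median of -0.06. Atp6ap2, the accessory subunit also called the prorenin receptor, had 24.6, 21.7 and 13.3 FPKM in H3.3KD clones, against 31.7 and 42.8 FPKM in LUC clones. All its H3.3KD clones lay below, with a difference of -0.91 (SE 0.32). Rnasek, a small V0-associated protein, was the one whose H3.3KD clones all lay above, at 161.1, 150.1 and 151.3 FPKM in H3.3KD clones against 131.8 and 145.0 FPKM in LUC clones. Over all genes tested, 11.4% had all H3.3KD clones above and 21.2% had all below. Atp6v1g1, a stalk subunit G, had 283.2, 206.7 and 176.9 FPKM in H3.3KD clones, against 170.3 and 183.1 FPKM in LUC clones. Atp6v1f, subunit F of the central stalk, had 122.6, 88.0 and 86.2 FPKM in H3.3KD clones, against 74.3 and 91.2 FPKM in LUC clones. Both were highest in H3.3KD clone 1 and overlapped between the groups. Atp6v0e2, an isoform of the small V0 subunit e, had 2.80, 2.80 and 6.70 FPKM in H3.3KD clones, against 6.65 and 6.22 FPKM in LUC clones, where clone 3 alone of the H3.3KD clones reached the LUC level. The other 5 genes that passed the filter (Atp6v0a2, Tcirg1, Atp6v0e, Atp6v1g2 and Atp6ap1) had overlapping groups.

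Of the 9 genes for pump assembly and regulation, all passed the filter and none the test (limma, smallest adjusted p = 0.558) or an unadjusted p under 0.05, with 5 differences above and 4 below 0 and a median of 0.00 on the log2(FPKM + 1) scale. Tmem199, an assembly factor in the endoplasmic reticulum, had 13.5, 16.6 and 23.5 FPKM in H3.3KD clones, against 23.2 and 25.8 FPKM in LUC clones. Oxr1, a TLDc-domain protein, had 26.4, 52.8 and 104.9 FPKM in H3.3KD clones, against 39.0 and 45.2 FPKM in LUC clones. The H3.3KD clones of Oxr1 lay on both sides of the LUC clones. Of the rest, Ncoa7 lay above in every H3.3KD clone, at 2.80 to 3.14 FPKM against 2.23 to 2.76 FPKM in LUC clones. Dmxl2 lay below in every H3.3KD clone, at 0.886 to 1.45 FPKM against 1.57 to 1.75 FPKM in LUC clones. The groups overlapped for Vma21, Ccdc115, Dmxl1, Wdr7 and Rogdi. The shares over all genes tested were 11.4% above and 21.2% below.

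Of 35 lysosomal genes, 34 passed the filter and none the test (limma, smallest adjusted p = 0.417). Of the 34, 2 had an unadjusted p under 0.05, against 1150 of all 11728 genes. On the log2(FPKM + 1) scale 13 differences were above and 21 below 0, with a median of -0.05. The 3 transcription factor genes of the lysosomal programme differed little. Tfeb had 5.24, 5.50 and 6.24 FPKM in H3.3KD clones, against 4.96 and 6.97 FPKM in LUC clones, and Tfe3 had 27.6, 30.0 and 31.2 FPKM in H3.3KD clones, against 29.1 and 27.3 FPKM in LUC clones. Mitf had 1.24, 1.67 and 1.27 FPKM in H3.3KD clones, against 1.68 and 1.96 FPKM in LUC clones, below in every H3.3KD clone by a narrow margin. The largest difference was that of the protease gene Ctsl, at 172.4, 242.5 and 165.2 FPKM in H3.3KD clones against 342.4 and 608.1 FPKM in LUC clones, a difference of -1.26 (SE 0.33). Ostm1, the partner of a lysosomal chloride transporter, had 9.26, 9.97 and 6.76 FPKM in H3.3KD clones, against 20.3 and 16.5 FPKM in LUC clones, and the groups did not overlap. Ctsa, the gene of protective protein cathepsin A, had 119.1, 70.6 and 39.2 FPKM in H3.3KD clones, against 24.9 and 56.9 FPKM in LUC clones, with overlap. Among the lysosomal genes of highest level, Psap had 427.5, 316.4 and 296.2 FPKM in H3.3KD clones against 277.9 and 384.2 FPKM in LUC clones, and Ctsd 391.5, 240.2 and 336.0 FPKM in H3.3KD clones against 209.1 and 420.8 FPKM in LUC clones, both with overlap. Of the 34 genes tested, 2 had all H3.3KD clones above both LUC clones and 5 had all below. The shares over all genes tested were 11.4% and 21.2%. The tetraspanin gene Cd63 was one of the 2 above, at 762.3, 695.9 and 760.1 FPKM in H3.3KD clones against 568.1 and 530.7 FPKM in LUC clones.

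Of 14 genes of the Ragulator, the Rag GTPases and mTORC1, which meet the pump at the lysosome, 11 passed the filter and none the test (limma, smallest adjusted p = 0.489). Of the 11, 2 had an unadjusted p under 0.05, against 1150 of all 11728 genes. On the log2(FPKM + 1) scale 5 differences were above and 6 below 0, with a median of -0.17. The Ragulator gene Lamtor2 had 132.1, 99.1 and 73.1 FPKM in H3.3KD clones, against 50.2 and 58.8 FPKM in LUC clones, and Lamtor4 had 50.2, 34.6 and 48.7 FPKM in H3.3KD clones, against 26.4 and 28.5 FPKM in LUC clones. Both lay above in every H3.3KD clone, with differences of 0.85 (SE 0.30) and 0.66 (SE 0.23). Flcn, which acts on the Rag GTPases, lay below in every H3.3KD clone, at 22.2, 18.7 and 17.2 FPKM in H3.3KD clones against 25.4 and 27.5 FPKM in LUC clones. Among the 11 genes, 3 lay above in every H3.3KD clone (Lamtor2, Lamtor4 and Lamtor5) and 3 below (Flcn, Rraga and Mtor). The shares over all genes tested were 11.4% above and 21.2% below.

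The chromatin libraries were read within 2 kb of either end of each mm9 locus, as peaks in the deposited lists and as deposited levels, log2(RPKM + 1), in regions that the authors called in the H3.3 and NuRD libraries. Apart from HA-H3.3, with 2 replicates, each protein or mark had 1 library per condition and so no replicate check. The counts are set beside the same for the 11555 genes with a mean of at least 1 FPKM in LUC clones. This background was not matched to the 10 genes for expression level. All 10 V-ATPase genes had a peak of each active mark. H3K4me3, a mark of active promoters, did so for 10 of 10 genes against 92.1% of the background genes, H3K9ac for 10 of 10 against 86.7%, and H3K27ac for 10 of 10 against 65.4%.

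The H3K4me3 peaks were broad. The widest peak of each gene had a median width of 3256 bases, from 2049 in Atp6v0d1 to 5517 in Atp6v1a, against a median of 2867 bases over the 10647 background genes with one. The widest H3K9ac peaks had a median of 2259 bases (1114 to 3866), against 1837 bases, and the widest H3K27ac peaks 450 bases (302 to 732), against 359 bases. The scores, the authors' own from the peak caller, were 3100 for the widest H3K4me3 peak of all 10 genes, which is also the median over the background genes. At Atp6v0c an H3K4me3 peak ran from 2296 bases inside to 1442 bases outside the end with the higher H3K4me3 level, with an H3K9ac peak from 1768 inside to 1387 outside it and 3 short H3K27ac peaks. A separate H3K4me3 peak, of score 2255, lay across the other end of the locus, close to Amdhd2. For the 7 genes with a strand in RefSeq, the end with the highest H3K4me3 level was the 5' end in 7 of 7.

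**Figure D4:**
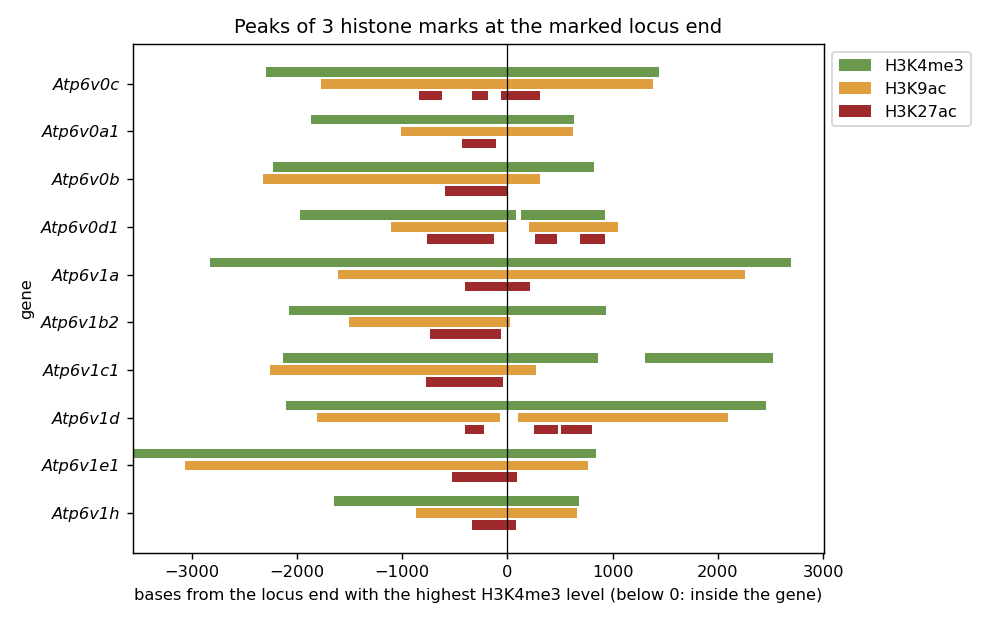
Extent of the H3K4me3 (green), H3K9ac (orange) and H3K27ac (dark red) peaks in bases (x axis) from the locus end with the highest H3K4me3 level, below 0 inside the gene, for each of the 10 V-ATPase genes (rows). An H3K4me3 peak crosses that end in all 10 genes and is widest in Atp6v1a (5517 bases), and the H3K27ac pieces are the shortest.

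The levels gave the order of the genes. H3K4me3 was highest at Atp6v1e1 (4.91), Atp6v1b2 (4.82) and Atp6v1c1 (4.71) and lowest at Atp6v0d1 (2.02), all as log2(RPKM + 1) in the highest region. The value for Atp6v0d1 came from 63 reads (95% Poisson interval of the level 1.74 to 2.30) in a region that starts 56 bases inside its end, while its main H3K4me3 peak lies inside the gene from 1970 bases before that end. Atp6v0c had 4.05 from 286 reads (interval 3.89 to 4.21), and the median over the 10 genes was 4.39, against 4.16 over 10604 background genes with a region. H3K9ac had a median of 2.95 against 2.23, from 1.32 at Atp6v0d1 to 3.27 at Atp6v1e1, and H3K27ac a median of 1.96 against 1.56, from 1.25 at Atp6v1a to 2.51 at Atp6v1e1. The main H3K9ac peak of Atp6v0d1, from 1106 bases inside its end to 8 outside, also lay mostly beyond that region. At Atp6v1a the H3K27ac peaks reached 214 bases outside its end, while the region began at 303. These lowest values thus leave out most or all of those peaks. The Poisson intervals cover counting error only.

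HA-H3.3 peaks lay within 2 kb of an end of every gene, but not always at the end with the highest H3K4me3 level. All 10 had a region covered by a peak of at least 1 HA-H3.3 replicate, against 84.8% of the background genes, and the highest level had a median of 2.46, against 2.26. The highest was Atp6v0a1 (3.05), in a region of 8797 bases over its 3' end, and the lowest Atp6v0d1 (1.58). In the region with the highest H3K4me3 level, Atp6v0b, Atp6v1b2 and Atp6v1c1 had no HA-H3.3 peak in either replicate. Atp6v0d1 had one there in replicate 2 alone. At Atp6v0c the replicates differed in place. In the region over the 5' end, replicates 1 and 2 had levels of 1.96 and 1.44, and a peak covered 76.0% of it in replicate 1 and none of it in replicate 2. In the region over the other end they had 2.76 and 2.58, with a peak over 90.1% and 100% of it. That region also covers the near edge of the Amdhd2 locus, and the 2 genes cannot be told apart there.

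Peaks of the NuRD subunits were counted per gene, with 1 library per subunit, and the counts were not tested against the background. RBBP4 peaks covered part of a region at 10 of 10 genes, against 79.5% of the background genes, and HDAC2 peaks at 6 of 10 (Atp6v0c, Atp6v0a1, Atp6v0b, Atp6v1c1, Atp6v1e1 and Atp6v1h), against 51.9%. HDAC1 peaks did so at 4 of 10 (Atp6v0a1, Atp6v0d1, Atp6v1a and Atp6v1h), against 31.5%, MBD2/3 peaks at 3 of 10 (Atp6v0b, Atp6v1e1 and Atp6v1h), against 13.9%, MTA1 peaks at 3 of 10 (Atp6v0a1, Atp6v0b and Atp6v1h), against 13.2%, and CHD4 peaks at Atp6v1h, 1 of 10, against 11.3%. Atp6v1h was thus the gene with peak coverage of all 6 subunits, and Atp6v1b2 and Atp6v1d had that of RBBP4 alone among the subunits. The coverage at Atp6v1h was partial, from 15.0% of the region for MTA1 to 66.4% for RBBP4. At Atp6v0b the MTA1 peak covered 23.7% of a region outside the gene on the side of B4galt2. The region with the highest H3K4me3 level of Atp6v0b had no MTA1 peak. With a window of 1 kb, MTA1 peaks were at 2 of the 10 genes. At a coverage of at least 0.5, CHD4, HDAC1, MBD2/3 and MTA1 peaks were at 0 of the 10 genes and HDAC2 peaks at 2.

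At the 5' end of Atp6v0c, RBBP4 had a level of 2.26 from 26 reads and a peak over 89.8% of the region, and HDAC2 a level of 1.99 from 15 reads and a peak over 29.2%. CHD4 (1.44, 12 reads), HDAC1 (1.83, 17 reads), MBD2/3 (0.99, 6 reads) and MTA1 (1.28, 12 reads) had no peak there. The MTA1 level, the highest of the Atp6v0c regions, was the lowest among the 10 genes. At Atp6v1b2, RBBP4 had 2.67 from 22 reads and a peak over 100% of the region, and the other 5 subunits, with 5 to 14 reads, had none. At so few reads the intervals are wide, for example 1.80 to 2.71 for RBBP4 at Atp6v0c and 2.12 to 3.19 at Atp6v1b2, and these do not separate the genes.

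Over the 10 genes the highest level had a median above that of the background genes for each subunit. It was 2.38 against 2.26 for RBBP4, 2.36 against 1.99 for HDAC2, 2.08 against 1.69 for HDAC1, 1.61 against 1.37 for MBD2/3, 1.54 against 1.35 for MTA1 and 1.46 against 1.38 for CHD4. It lay below the upper quartile of the background for RBBP4 (2.49), MBD2/3 (1.63), MTA1 (1.56) and CHD4 (1.61). For HDAC2 (2.27) and HDAC1 (1.96) it lay above that quartile. These gaps rest on 1 library per subunit and were not tested. The highest CHD4 level was that of Atp6v1h (2.12), the highest MBD2/3 (2.38) and MTA1 (1.97) levels were those of Atp6v1e1, and HDAC2 was highest at Atp6v1c1 (2.75).

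**Figure D5:**
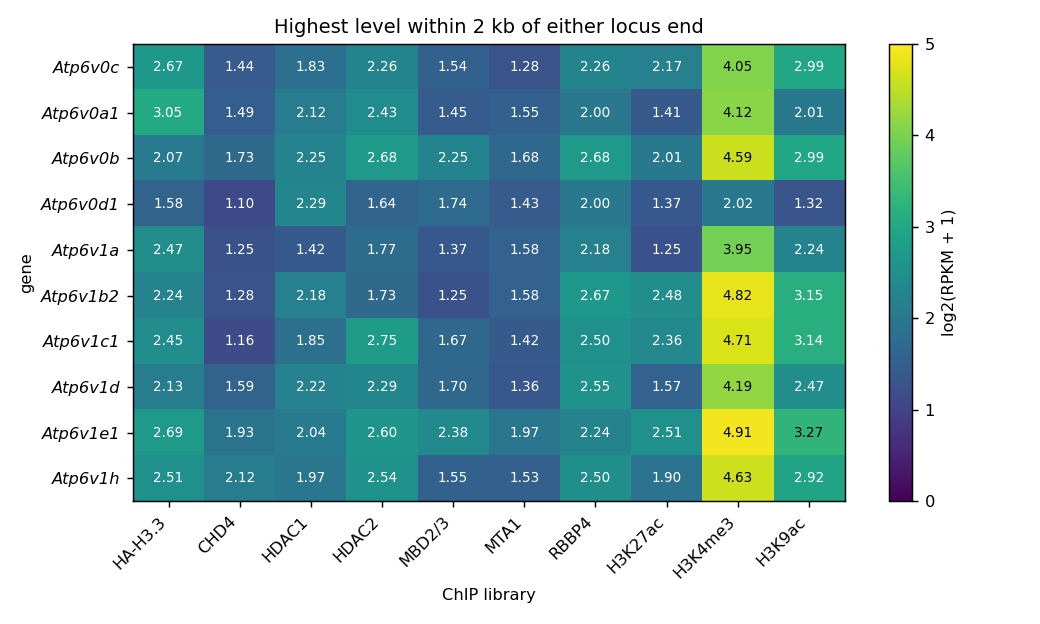
Highest deposited level, log2(RPKM + 1), within 2 kb of either locus end for the 10 V-ATPase genes (rows) in each ChIP library of untransduced or HA/FLAG-H3.3 cells (columns; the HA-H3.3 column is the mean of 2 replicates). H3K4me3 is the brightest column, from 2.02 at Atp6v0d1 to 4.91 at Atp6v1e1, and the NuRD subunits lie between 1.10 and 2.75. The Atp6v0c values of HA-H3.3, HDAC2 and MBD2/3 come from the region over its 3' end, which also covers the near edge of Amdhd2.

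Few peaks of the ChIP in H3.3KD and LUC cells lay at these genes, and most background genes had none either. With 10 genes, these counts cannot set the pump genes apart from the background. The MTA1 lists had a peak within 2 kb of 0 of 10 genes in H3.3KD cells and 0 of 10 in LUC cells, against 3.91% of the background genes in H3.3KD cells and 3.70% in LUC cells. The RBBP4 lists had a peak at 1 of 10 genes in H3.3KD cells and 0 of 10 in LUC cells, against 16.2% in H3.3KD cells and 15.4% in LUC cells. That 1 peak, at Atp6v0b, lay 985 to 1140 bases outside the gene on the side of B4galt2, with a score of 50.5, near the lowest in the list. The list of the sequential FLAG and RBBP4 precipitation held 6 peaks in all and none at these genes, against 0.0692% of the background genes. Atp6v0c, Atp6v1b2 and Atp6v1e1 had no MTA1 or RBBP4 peak in either condition, so these lists give no binding difference at the genes with separated RNA values. The depth of these libraries is unknown, and with 1 library per condition a missing peak says only that none was listed.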

How the data were processed

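The RNA tables hold FPKM values with confidence bounds, as deposited by the authors, in columns of the Cufflinks kind per the file headers. Per the submitters' processing notes, TopHat, Cufflinks, Cuffdiff, Bowtie, bedtools and MACS2 were used with build mm9, with no role or version given. The region table holds levels that the authors deposited on a log2 scale, log2(RPKM + 1), and where they correspond to fewer than 100 reads, all were whole numbers of reads (tolerance 0.05), from which reads per region were taken. A companion table deposited by the authors gives the fraction of each of 82893 regions covered by peaks and numbers of annotated gene features, which were not used. The peak lists carry a score per peak, as deposited. The sequential ChIP list, made with MACS 2.1.1.20160309 (q-value limit 0.05), gives pileup signal, fold enrichment and −log10 p and q values per the file headers; its positions were used. Input libraries were not used here.

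The 24457 entries of each RNA table were summed per symbol, giving 23951 symbols. H3.3KD and LUC clones were compared with limma 3.58.1 in R 4.3.3 (linear model with moderated, trended variances, two-sided) on log2(FPKM + 1). The 11728 genes averaging 1 FPKM or more entered, with Benjamini-Hochberg adjustment; differences understate changes of low genes. The script was tested on simulated data. Fragments were estimated from the upper bound, taken as 2 SD of a Poisson count. Clone numbers were taken only as names of clones, and no block was used. Deviations of same-numbered clones had r = -0.25 and -0.0952. With 2 LUC clones, whose deviations mirror each other, these values cannot show whether clones were paired. Intervals of levels are 95% Poisson intervals. Alternatives were other pseudocounts, filters, scalings, weights, windows, score and coverage limits, and leaving out each library. The genes named are the 10 subunit genes, other pump and assembly genes, pseudogene entries of Atp6v0c, genes within 100 kb of it, the 5 most like it and the H3.3 genes. Of the lysosome list the 3 highest, the 3 of largest difference and the 3 transcription factors are named, and of the Ragulator list the 3 of largest difference. Members and lists were chosen with earlier results of these data known. Positions are 1-based, in mm9 for the files and GRCm38.p6 for RefSeq promoters, and none was converted.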

Additional observations from a re-analysis of the deposited data

How the results depend on the processing

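With the Atp6v0c and Atp6v0c-ps2 entries summed, the Atp6v0c difference was -0.0888, against 2.13 as listed; in the other 14 settings it was above 0, from 1.98 to 2.29 with a clone left out. No V-ATPase gene passed the test in any setting, and Atp6v1b2 and Atp6v1e1 stayed below 0. Small differences changed sign: with array weights Atp6v0a1 had 0.0275, Atp6v0b -0.0407 and Atp6v1d 0.0782, and with quantile normalization Atp6v0a1 had 0.0593, Atp6v1a 0.0642 and Atp6v1d 0.12. With the clone number as a replicate block, although the numbers pair no clones, Atp6v0a1 had 0.0213, Atp6v1d 0.0198 and Oxr1 -0.16, 0 genes of all were called, and the Ragulator median was -0.0771. Leaving out a clone gave -0.28 to 0.13 for Atp6v0a1, -0.0308 to 0.24 for Atp6v0b, -0.63 to 0.0111 for Atp6v0d1, -0.44 to 0.31 for Atp6v1a, -0.27 to 0.25 for Atp6v1d and -0.16 to 0.81 for Oxr1.

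Genes called over all genes, 4 in the report, were 12 with array weights, 0 without short RNA genes and 8 to 30 with a clone left out. The median of the 9 other members was -0.16 with array weights, -0.15 with quantile normalization and -0.44 to 0.0111 with a clone left out. Leaving out a clone gave medians of -0.0805 to 0.0433 for the other pump genes, -0.31 to 0.13 for the lysosomal genes and -0.20 to -0.0169 for the Ragulator genes, whose median was -0.0622 with array weights and -0.0812 with quantile normalization. By Pearson correlation, 1 of the 5 genes most like Atp6v0c was shared. At a score of 100 or more, 0 members had an RBBP4 peak in H3.3KD cells. At a coverage of at least 0.5, peaks of CHD4, HDAC1, MBD2/3 and MTA1 were at 0 members each and those of HDAC2 at 2. The HA-H3.3 median was 2.49 in a 5 kb window, 2.22 in the nearest region and 2.47 to 2.50 with a replicate left out, and in the nearest region the medians were 1.53 for H3K27ac, 4.16 for H3K4me3 and 2.36 for H3K9ac. The cause of these shifts was not tested. The medians near 0 changed sign in further settings: with quantile normalization the median was 0.0291 for the other pump genes and 0.0299 for the lysosomal genes, and that of the assembly genes, 0.0025 in the report, was -0.0189 with array weights and -0.154 with the replicate block. Of the recomputed differences of single genes, 303 were unchanged and 20 changed sign. Unchanged meant the same sign and the same side of the threshold. For Atp6v0c, given without a test, it meant a shift smaller than the SD between its H3.3KD clones. With 2 LUC clones the intervals of the members reach from 0.44 to 0.80 either side, and smaller differences could not be seen. These intervals are not adjusted over all genes, so larger differences could be missed by the test as well. Atp6v1b2, at -1.49, did not pass it (limma, adjusted p = 0.336).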

Other observations

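The other pair of entries that share a locus and moved in opposite directions was Oaz1, which encodes the ornithine decarboxylase antizyme, and Oaz1-ps. Oaz1 had 486.1, 262.2 and 436.3 FPKM in H3.3KD clones 1 to 3, against 200.9 and 159.7 FPKM in LUC clones 1 and 2. Oaz1-ps had 0.000248, 202.4 and 0.0806 FPKM in H3.3KD clones, against 411.0 and 331.1 FPKM in LUC clones. The Oaz1 entry held 99.9999%, 56.4% and 99.98% of the summed FPKM in H3.3KD clones, against 32.8% and 32.5% in LUC clones, so that H3.3KD clone 2 was again the knockdown clone with the lowest share, as it was for Atp6v0c (73.5%). The sum over both entries was 486.1, 464.6 and 436.4 FPKM in H3.3KD clones, against 611.8 and 490.8 FPKM in LUC clones. These values were looked up after those of Atp6v0c were seen, and no test was run on them.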
